A study of Mus musculus with 6 samples.

Results

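The genes described here are fibulins and other genes of the elastic fibre, measured in C2C12 myotubes, the multinucleate cells formed when this mouse myoblast line differentiates. Of 10 genes listed by symbol, 7 had a row of their own in the table of array values, which held rows for 14852 genes named singly. These were Fbln5, its fibulin paralogs Fbln1, Fbln2 and Efemp1, and Eln, Fbn2 and Ltbp4. Efemp2, Fbn1 and Lox had no such row and were not analysed here. The genes were grouped by family and role, with differences between ATF4 and control arrays already known. Calls for these 7 genes on that difference are therefore given as a description and support nothing further.

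In the ATF4 group (3 samples) the myotubes carried adenovirus for eGFP and FLAG-tagged ATF4, a bZIP transcription factor of the amino acid and endoplasmic reticulum stress response. In the control group (3 samples) the virus gave eGFP and FLAG-tagged ATF4deltabZIP, which lacks the DNA-binding domain. RNA was taken 48 hours after infection, so all 6 samples had virus, eGFP and an ATF4 construct. One cell line was used, and the labels do not say that samples came from separate cultures, so the p-values measure a spread that may be technical.

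Each sample was read on 1 Affymetrix mouse exon array, with 16700 rows of values taken to be log2, and the number of arrays limits the precision. The middle of the value range was narrower on ATF4 array 3 and control array 3 than on the others, with an interquartile range of 1.80 and 1.63 against 2.19 to 2.28. The 8 measured myotube markers, of 10 listed, had medians of 8.44 to 9.25 on ATF4 arrays and 8.32 to 9.51 on control arrays. Medians of all rows were 5.76 to 5.93 on ATF4 arrays and 5.79 to 5.996 on control arrays. The endothelial and macrophage marker medians lay below these, at 4.48 to 4.96 on ATF4 arrays and 4.42 to 5.07 on control arrays. No detection calls were used, so a change in a dim row may be understated.

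Elastic fibres let tissue recoil after stretch. They are built of an elastin core on a scaffold of fibrillin microfibrils, and fibulins link the parts during assembly, after which lysyl oxidases cross-link the elastin. In skeletal muscle they run in the connective tissue around fibres and bundles, and muscle cells as well as fibroblasts can secrete their components.

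Fbln5 encodes fibulin-5, a secreted glycoprotein that binds elastin, lysyl oxidase-like enzymes and integrins and that is needed to form elastic fibres in mice. Its row (transcript cluster 6803133) had 8.52, 8.18 and 8.16 on ATF4 arrays 1, 2 and 3, against 6.97, 6.43 and 6.49 on control arrays 1, 2 and 3. The lowest ATF4 value lay more than 1 log2 unit above the highest control value, so the groups did not overlap. The means were 8.29 ± 0.20 in ATF4 arrays and 6.63 ± 0.30 in control arrays (log2, SD, n = 3 each). Fbln5 thus rose 3.16-fold, a log2 difference of 1.66 (standard error 0.21) that passed over all rows (limma adjusted p = 0.00495). A 95% interval from the same fit ran from 1.20 to 2.12, or 2.30-fold to 4.35-fold. In bulk RNA of this kind, more RNA per cell and more cells of a type that makes it cannot be told apart.

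Within sample numbers, the ATF4 minus control difference of Fbln5 was 1.55 at number 1, 1.76 at number 2 and 1.68 at number 3. It was thus of like size at each number, although number 1 had the highest Fbln5 value in both groups. Its change ranked 45th among the rises of all 16700 rows. Without both number 3 arrays the difference was 1.65 and the call ended (limma adjusted p = 0.0530, 2 arrays per group). The cause of this was not tested. With any single array left out the difference was 1.55 to 1.83 (limma adjusted p from 0.00183 to 0.0443).

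**Figure D1:**
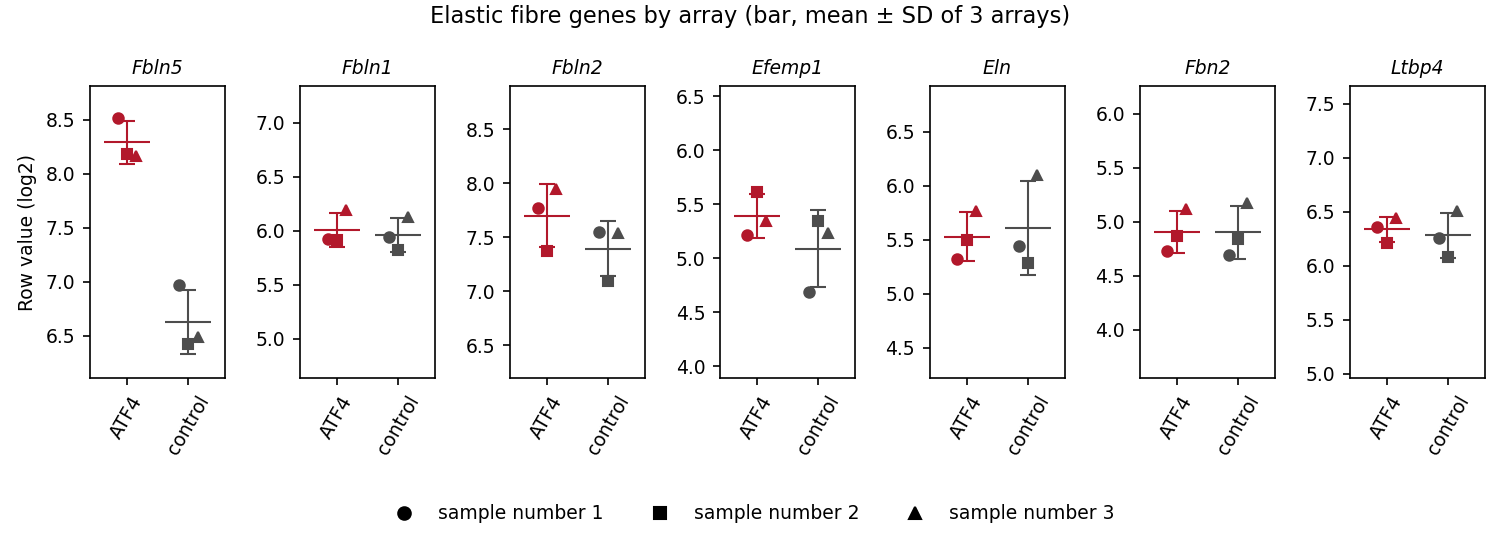
Row values (log2) of the 7 measured genes on each array, with ATF4 arrays at the left and control arrays at the right of each panel; markers give the sample number, bars the mean and SD of 3 arrays, and every panel spans the same number of log2 units. Fbln5 had 8.16 to 8.52 on ATF4 arrays and 6.43 to 6.97 on control arrays, whereas the groups overlapped for each of the other 6 genes.

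The RefSeq promoter table (GRCm38.p6) holds 2 starts for Fbln5, 635 bases apart, each with a window from 250 bases before to 50 bases after it. Both windows are shown because one of them, at the downstream start, holds the letters of the composite site at which ATF4 pairs with C/EBP factors, TGATGNAA, searched on both strands. Capitals mark the match, which begins 124 bases before that start. The first window lies at chr12:101819070-101819369 and the second at chr12:101818435-101818734, both on the minus strand. The array row does not tell which start was used.
Fbln5 upstream start: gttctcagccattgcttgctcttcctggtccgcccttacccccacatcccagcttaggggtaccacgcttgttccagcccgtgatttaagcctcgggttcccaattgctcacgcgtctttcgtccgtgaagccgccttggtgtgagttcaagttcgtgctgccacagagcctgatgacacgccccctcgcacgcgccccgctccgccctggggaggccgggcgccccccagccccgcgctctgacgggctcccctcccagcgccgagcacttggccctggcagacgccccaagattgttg
Fbln5 downstream start: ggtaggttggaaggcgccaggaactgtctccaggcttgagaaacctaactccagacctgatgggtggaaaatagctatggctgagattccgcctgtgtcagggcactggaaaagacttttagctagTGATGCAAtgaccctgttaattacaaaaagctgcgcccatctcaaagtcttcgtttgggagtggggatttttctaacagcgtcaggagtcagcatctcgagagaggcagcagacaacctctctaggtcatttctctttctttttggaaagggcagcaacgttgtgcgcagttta

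Windows were found for 7 of the 10 listed genes, all but Eln, Fbn2 and Lox. Of their 13 windows 1 held TGATGNAA, the one at the downstream Fbln5 start, and 0 held the cyclic AMP response element TGACGTCA, searched in the same way. The Fbln5 match is therefore not overlapped by that element. Over every window of that source, 3.97% of 32851 windows held TGATGNAA and 1.79% held TGACGTCA. A match describes letters and does not show binding, and a window without one says nothing of sites elsewhere. For comparison, these are stretches around a match in Slc7a11, Asns and Chac1, which are well known targets of ATF4, with the match again in capitals. They lie at chr3:50443662-50443689 (minus strand), chr6:7693215-7693242 (minus strand) and chr2:119351039-119351066 (plus strand), and the Chac1 match reads on the opposite strand of the gene.
Slc7a11: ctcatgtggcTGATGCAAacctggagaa
Asns: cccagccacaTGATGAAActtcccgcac
Chac1: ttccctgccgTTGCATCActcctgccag

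Of the 7 measured genes 1, Fbln5, passed the limma threshold (adjusted p below 0.05 over all rows), and 0.593% of all rows did so. With the sample number as a block, Fbln5 was again the 1 gene that passed, where 3.56% of all rows did. Groups without overlap were found for 1 of the 7 genes and for 9.12% of all rows. The median change of the 7 genes was 0.06 on the log2 scale, and that of all rows was -0.03. Nothing is read from these shares, since the contrast was known when the genes were grouped.

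For the other fibulins the ATF4 and control arrays overlapped and no call was made. Fbln1 encodes fibulin-1, which binds fibronectin and elastin and lies in basement membranes and elastic tissue. Its row had 5.92, 5.92 and 6.19 on ATF4 arrays and 5.94, 5.82 and 6.13 on control arrays, so each group covered nearly the same range. The difference was 0.05 (standard error 0.18), with a 95% interval of 0.782-fold to 1.37-fold.

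Fbln2 encodes fibulin-2, a larger relative that joins microfibrils and basement membranes and partly overlaps with fibulin-5 in vessel walls of mice. Its values were 7.78, 7.38 and 7.95 on ATF4 arrays and 7.55, 7.10 and 7.54 on control arrays. ATF4 arrays were higher at each sample number, by 0.23, 0.28 and 0.41, but ATF4 array 2 lay below control arrays 1 and 3, so the groups overlapped. The difference was 0.30 (standard error 0.21), with an interval of 0.888-fold to 1.72-fold. With the number as a block the log2 interval was 0.09 to 0.52, above 0. The difference ran from 0.16 without control array 2 to 0.47 without ATF4 array 2. It did not pass without the block (limma adjusted p = 1) or with it (0.142).

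Efemp1 encodes fibulin-3, which is needed for intact fascia and elastic tissue in mice. It had 5.22, 5.62 and 5.34 on ATF4 arrays against 4.69, 5.35 and 5.24 on control arrays. Here too ATF4 arrays were higher at each number, by 0.53, 0.27 and 0.11, with overlap between the groups. The difference was 0.30 (standard error 0.22), with an interval of 0.880-fold to 1.73-fold (limma adjusted p = 1, and 0.224 with the block). Blocked by number, its log2 interval was 0.04 to 0.57, also above 0. Without control array 1 the difference was 0.10, and without control array 2 it was 0.43. Across all rows, 17.0% were higher in ATF4 at all 3 numbers, so 3 of the 7 genes being so is given as a count only.

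**Figure D2:**
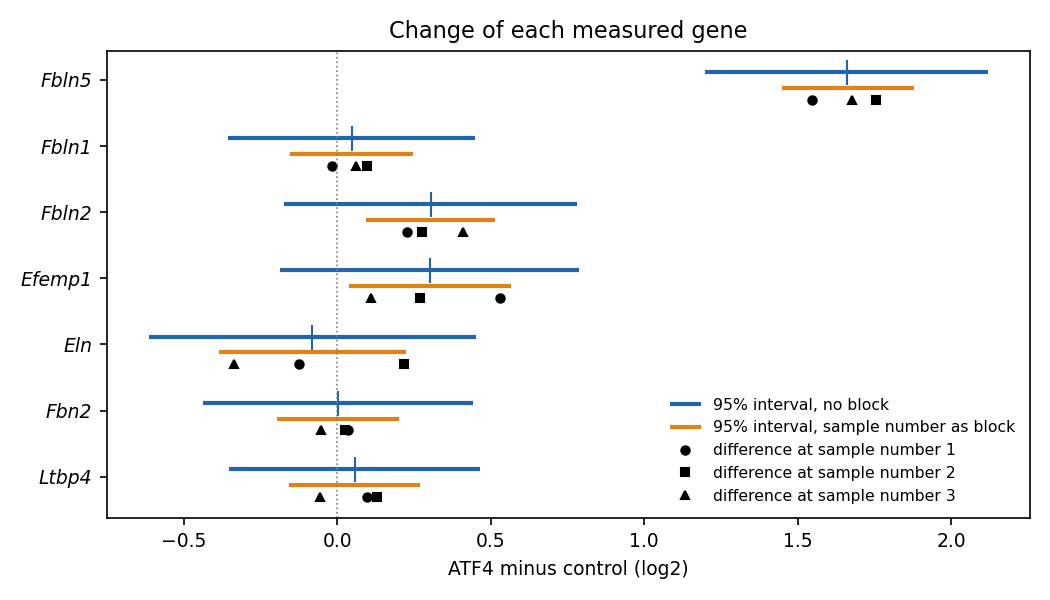
ATF4 minus control (log2) for the 7 measured genes, with 95% intervals of the limma fit without a block and with the sample number as a block, and the difference at each sample number as points. The 3 points of Fbln5 lie at 1.55 to 1.76, and no other gene has a point above 0.53.

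Set against its paralogs, the Fbln5 change was larger at every sample number. The Fbln5 change minus that of Fbln1 was 1.56, 1.66 and 1.62 at numbers 1, 2 and 3. Against Fbln2 it was 1.32, 1.48 and 1.27, and against Efemp1 1.02, 1.49 and 1.57. These differences show by how much more the Fbln5 row moved, and the smallest was that against Efemp1 at number 1. The rows differed in brightness, with means at percentile 83.2 of all rows for Fbln5 and 84.5 for Fbln2. Fbln1 lay at 53.9 and Efemp1 at 33.2, so the change of a dimmer paralog could be understated. Against the mean of the 3 paralogs the Fbln5 change was 1.44 larger (SD over numbers 0.13, n = 3), or 2.72-fold. Because Fbln5 was singled out for comparison with the changes known, no test is attached. The 2 further fibulin relatives with a row, of 3 listed, were alike in this. Fbln7, an adhesion protein of teeth and other tissues, had 5.78 ± 0.22 in ATF4 arrays and 5.62 ± 0.26 in control arrays, and the hemicentin gene Hmcn2 had 5.88 ± 0.25 and 5.86 ± 0.20 (log2, SD, n = 3 each). Their limma adjusted p was 1.

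The core and scaffold genes did not pass either. Eln encodes tropoelastin, the soluble monomer of elastin. It had 5.32, 5.50 and 5.77 on ATF4 arrays and 5.44, 5.28 and 6.10 on control arrays, and both extremes were control values. The difference was -0.08 (standard error 0.24), negative at numbers 1 and 3 and positive at number 2, and its interval was 0.653-fold to 1.37-fold. The row mean lay at percentile 42.5 of all rows, so a change could be understated.

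Fbn2 encodes fibrillin-2, the microfibril protein most used during development and regeneration. Its values were 4.73, 4.87 and 5.12 on ATF4 arrays and 4.69, 4.84 and 5.17 on control arrays. Arrays of one number differed by at most 0.05, and the interval of the difference was 0.739-fold to 1.36-fold. The row was dim, with a mean at percentile 24.5 of all rows, so a change could be understated.

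Ltbp4 encodes a latent TGF-beta binding protein that also guides fibulin-5 onto microfibrils. It had 6.36, 6.21 and 6.44 on ATF4 arrays and 6.26, 6.08 and 6.50 on control arrays. The groups overlapped almost fully, and the difference of 0.06 (standard error 0.18) had an interval of 0.783-fold to 1.38-fold. For Fbln1, Eln, Fbn2 and Ltbp4 each upper bound was 1.36-fold to 1.38-fold, below the lower bound of 2.30-fold for Fbln5. Signs of these 4 differences turned when some arrays were left out, and they carry no direction.

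The 7 rows also differed in what their values varied with. Of the sum of squares of Fbln5 over the 6 arrays, 94.1% lay between the groups and 5.66% between the sample numbers. For Fbln2 31.5% lay between groups and 66.4% between numbers, and for Efemp1 29.1% and 61.3%. In Fbln1, Eln, Fbn2 and Ltbp4 between 0.00639% and 3.98% lay between groups and 82.1% to 98.9% between numbers. Over all rows the median shares were 6.91% for the group and 77.2% for the number. The shares of a gene sum to 100%, so a large difference between groups leaves a small share to the number.

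The number pattern itself differed between genes. Fbln1, Eln, Fbn2 and Ltbp4 had their highest value of each group on array 3. The 25th percentile of all rows was likewise higher on the number 3 arrays, at 5.07 for ATF4 and 5.18 for control, against 4.76 to 4.83 on the other 4. Fbln2 had its lowest value of each group on array 2, whereas Efemp1 had its lowest on array 1 and its highest on array 2. The part of the array-wide shift in these patterns was not tested.

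**Figure D3:**
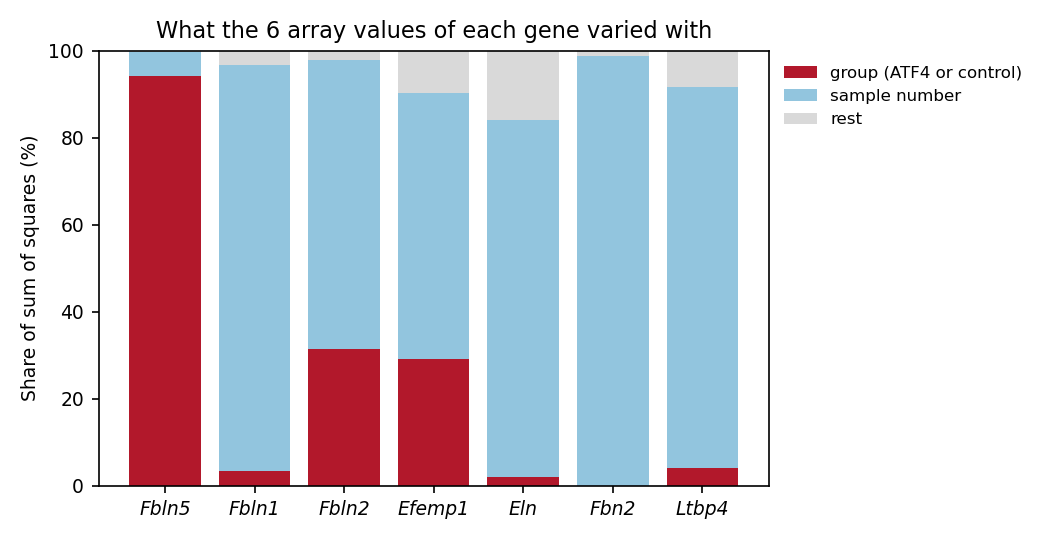
Share (%) of each gene's sum of squares over the 6 arrays that lay between the groups (ATF4 and control), between the sample numbers and in the rest. The group share is 94.1% in Fbln5 and at most 31.5% in the other 6 genes.

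Related genes were followed in lists by role, 85 genes of which 76 had a row. None of these 76 passed the limma threshold over all rows, 1 had an unadjusted p below 0.05 (5.26% of all rows did), and 1 passed with the replicate block. That 1 was Mfap5, which encodes a small microfibril glycoprotein that binds fibrillin. It had 9.02, 9.13 and 8.99 on ATF4 arrays and 8.60, 8.42 and 8.22 on control arrays, so each ATF4 value was above each control value. The difference of 0.63 had a standard error of 0.18. It missed the threshold at a limma adjusted p of 0.269 and passed at 0.0345 when the sample number was a block. Among the 19 measured microfibril and latent TGF-beta binding genes, of 22 listed, 12 had a higher mean in ATF4 arrays, with a median change of 0.09. The proteoglycan gene Vcan, which binds fibulins and fibrillin, had 10.11 ± 0.10 in ATF4 arrays and 9.79 ± 0.10 in control arrays (n = 3 each), with no overlap (limma adjusted p = 1, and 0.131 with the block).

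Genes for cross-linking and elastin handling, 9 measured of 10, had a median change of -0.06. In 3 of them, Atox1, Loxl2 and Glb1 (the last pair named after their values were seen), each ATF4 value lay below each control value. Over all 16700 rows, 771 were lower without overlap and 752 higher, so such counts are given as a description only. The copper chaperone gene Atox1 had a difference of -0.34 (standard error 0.17) and Atp7a, the pump that loads copper into lysyl oxidases, one of 0.31 (0.25). Elastin-degrading enzymes and their inhibitors, all 16 measured, had a median of 0.04, with Ctsl, a lysosomal protease, at 0.33 (0.18) without overlap and the gelatinase gene Mmp2 at 0.26 (0.23). Htra1 of this list was also higher in ATF4 arrays without overlap, but barely, with a difference of 0.18 (0.17). Its lowest ATF4 value was 8.2592 and its highest control value 8.258. Integrin chains that bind fibulin-5 or fibrillin, 7 measured of 8, had a median of 0.07. The beta chain gene Itgb5 had 0.18 (0.19) and the alpha chain gene Itga5 0.18 (0.18). For Atox1, Atp7a, Ctsl, Mmp2, Itgb5 and Itga5 the limma adjusted p was 1.

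TGF-beta is known to induce elastic fibre genes in mesenchymal cells. The 13 measured pathway genes, of 15 listed, had a median change of 0.03, with the receptor gene Tgfbr1 at 0.34 (standard error 0.26) and the integrin gene Itgb6 at -0.38 (0.28). The 10 measured target genes, of 11, had a median of 0.05, with the Smad corepressor gene Skil at 0.43 (0.22) and the matricellular gene Cyr61 at -0.34 (0.31). Tgfb1 of the pathway list was higher in ATF4 arrays without overlap, but barely, with a difference of 0.13 (0.17). Its lowest ATF4 value was 6.2156 and its highest control value 6.2062. Neither list had a member past the threshold, with or without the block.

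**Figure D4:**
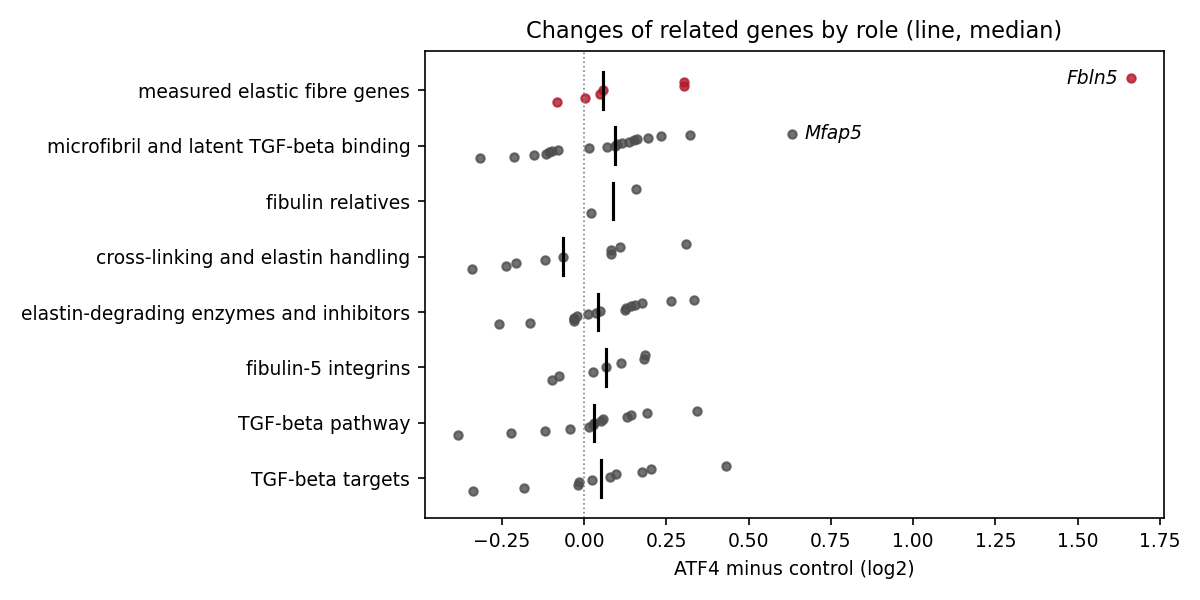
ATF4 minus control (log2) of the 7 measured elastic fibre genes and of each measured gene in 7 lists by role, with vertical lines at the medians. Fbln5 lies at 1.66, Mfap5 at 0.63 and every other gene between -0.38 and 0.43.

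Marker genes named for several cell types were set beside this result. The culture was of a single myoblast line, so these markers need not come from the cells they are named for. No list was made for unfused myoblasts. All 10 fibroblast markers were measured and 0 passed. Their summed log2 values were 67.1 to 69.5 on ATF4 arrays and 65.6 to 68.9 on control arrays. These ranges overlapped, but at each sample number the sum was higher in ATF4, by 1.62, 1.48 and 0.61, and 8 of the 10 means were higher. Over all rows, 6962 of 16700 means were higher. The median change of the list was 0.11, and Col1a1, Col1a2, Col3a1 and Thy1 had -0.01, -0.04, 0.03 and 0.005. Dpt, a matrix protein of fibroblasts, had the largest difference, 0.48 (standard error 0.20) at a limma adjusted p of 0.853, followed by the growth factor receptor gene Pdgfra with 0.21 (0.19). At number 1, Dpt alone gave 0.79 of the 1.62. The 6 smooth muscle markers had a median change of -0.02, with Smtn at 0.09 and Lmod1 at -0.12. The 8 measured myotube markers had one of -0.29, with Actn2 at -0.35 and Tnnt3 at -0.30, and 0 of the 8 means were higher in ATF4 arrays. Their summed log2 values were lower in ATF4 at each number, with differences of -2.26, -2.45 and -1.17. The 6 endothelial markers had a median change of -0.006, with 1 mean higher in ATF4 arrays. Cdh5 had 0.41 and Pecam1 -0.15. The 5 measured macrophage markers had a median change of -0.004, with 2 means higher. Ptprc had 0.75 (limma adjusted p = 0.222) and Cd68 -0.35. Each ATF4 value lay below each control value for Ckm (difference -0.30, named after its values were seen) and above each for Dpt and Ptprc. Over all rows, 9.12% had groups without overlap in either direction. No marker passed with or without the block, and 2 of the 35 measured had an unadjusted p below 0.05. Their part in the Fbln5 difference was not tested.

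Among 14987 other rows with 1 gene symbol, the 5 whose values correlated most with Fbln5 over the 6 arrays were Slc6a9, Rnf185, Aldh1l2, Cyb5r1 and Mical1. Pearson's r was 0.997 for Slc6a9, a glycine transporter, 0.996 for Rnf185, a ubiquitin ligase of the endoplasmic reticulum, and 0.994 for Aldh1l2, a mitochondrial folate enzyme. It was 0.993 for the reductase gene Cyb5r1 and 0.992 for Mical1, an oxidase that acts on actin. All 6 genes were read on the same 6 arrays, and each was higher on every ATF4 array than on every control array. That separation follows from the choice of rows, because 94.1% of the Fbln5 sum of squares lay between the groups. A high r with Fbln5 here mostly reflects the group difference. For the other 6 elastic fibre genes r with Fbln5 was lower, from -0.232 for Eln to 0.626 for Fbln2. The log2 differences of the 5 rows were 1.77, 1.38, 2.44, 0.86 and 0.68, so likeness of pattern did not mean equal size. Cyb5r1 and Mical1 did not pass (limma adjusted p = 0.0581 and 0.198) but did with the block (0.00821 and 0.0186).

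**Figure D5:**
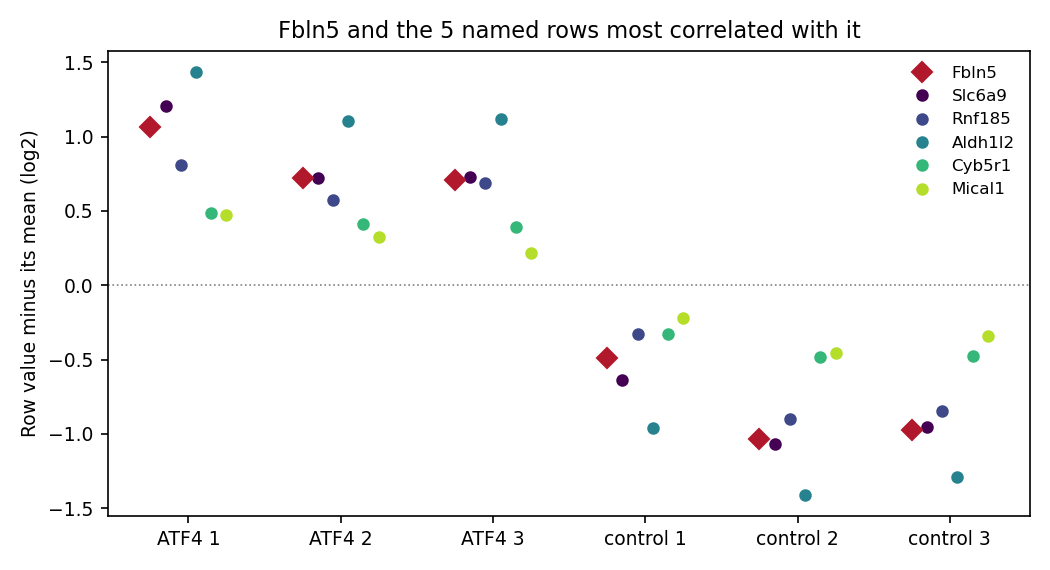
Row value minus the row's own mean (log2) on each array for Fbln5 and the 5 named rows most correlated with it, with ATF4 arrays at the left. All 6 rows are above their mean on each ATF4 array and below it on each control array, with Pearson's r of 0.992 to 0.997 to Fbln5. The 5 rows were picked for this r, and their separation by group follows from that choice.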

How the data were processed

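Total RNA was amplified with a NuGEN whole-transcript kit, biotin labelled and hybridised to Affymetrix mouse exon arrays, per the labels' protocols. Each array has 1 deposited value per transcript cluster, taken as log2 from its range. GCOS, RMA and the build mm9 are named, per the submitters' processing notes, with no version, setting or filter stated. Rows were named from the platform annotation (14988 with 1 symbol, 1018 with several, 694 with none). limma 3.58.1 in R 4.3.3 (lmFit, eBayes) was fitted to all 16700 rows, two-sided, with Benjamini-Hochberg adjustment, without and with a replicate block for the sample number, and tested on simulated data. Deviations from group means correlated by 0.578, 0.636 and 0.782 between arrays of one number and by -0.666 to 0.221 otherwise. Numbers were therefore read as pairs for the differences within a number and for the block. Calls, adjusted p-values and intervals are from the fit without the block unless the block is named, because the labels state no pairing. An exact permutation test of 3 against 3 cannot give p below 0.1. The members, the related lists and the rule for named genes (passing genes, otherwise the 2 largest changes of a list; the 5 rows most correlated with Fbln5) were chosen with earlier results of these data known. Alternatives were the block, 4 rescalings, filters on dim rows, trended, robust or weighted fits, arrays left out, a threshold of 0.01 and a 1.5-fold minimum. Promoter windows are RefSeq's; coordinates are GRCm38.p6.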

Additional observations from a re-analysis of the deposited data

How the results depend on the processing

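The Fbln5 difference was 1.55 to 1.83 under all 17 alternatives, and its call ended under 1 of them, without both number 3 arrays, where 0 of the 7 genes passed (limma, 2 against 2 arrays; 1 of the 7 had an unadjusted p below 0.05). In this balanced design the block, the filters on dim rows and the trended and robust fits cannot move the difference from 1.66. They bear only on the adjusted p. Under the 4 rescalings the limma adjusted p of Fbln5 was 0.00849 to 0.0306. Its excess over the mean of the 3 paralogs was positive under all 11 alternatives, from 1.296 to 1.66, the last without control array 1. Centring cannot change this excess. Fbln5 was singled out with its rise known, so the sign is given as a description only. The number of rows called depended more on the setting: 99 as reported, 594 with the replicate block, 561 with array weights, 151 after cyclic loess, 57 after centring and 41 at a threshold of 0.01. With arrays left out it ran from 38 (without ATF4 array 1) to 243 (without control array 3), with 44 without ATF4 array 2, 49 without control array 1 and 157 without both number 3 arrays. Causes were not tested. Uncalled differences also moved by over 1.5 times with 1 array left out, as those of Tgfbr1 (0.13 to 0.58), Cyr61 (-0.61 to -0.06) and Mmp2 (0.09 to 0.43). Fbln1, Eln, Fbn2 and Ltbp4 differences turned sign under some alternatives. So did that of Hmcn2, with -0.02 without control array 1, -0.05 without control array 2, -0.12 without ATF4 array 3 and -0.0068 without both number 3 arrays (range with arrays left out -0.12 to 0.14). That of Lmod1 was 0.0019 with array weights, 0.16 without control array 3 and 0.13 without ATF4 array 2 (range with arrays left out -0.36 to 0.16). Array weights brought Mfap5 (limma adjusted p = 0.0495), Dpt (0.0253) and Ptprc (0.00362) past the threshold, and Ptprc passed without control array 3 (0.0467). With 3 arrays per group and no detection calls, the fit without the block cannot resolve differences below about the intervals given for it. With the block the intervals of the 7 genes were narrower. For Fbln1 the log2 interval was -0.153 to 0.248 with the block and -0.355 to 0.45 without it. For Fbn2 it was -0.196 to 0.202 with the block and -0.437 to 0.443 without it.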

Other observations

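The letters TGATGNAA, found in the window of the downstream Fbln5 start, were counted over promoter windows of all genes with a row after they had been seen there. Fbln5 itself is among the genes counted here as holding them. Of 87 singly named genes called higher in ATF4 arrays (limma adjusted p below 0.05), 69 had a window in the promoter table, and 20 of these (29.0%) held the letters in at least 1 window. Of all 11889 genes with both a row and a window, 421 (3.5%) held them. These shares describe the windows, carry no test and do not show binding. Slc6a9, Rnf185, Cyb5r1 and Mical1, whose values correlated with those of Fbln5, had windows without the letters. Aldh1l2, also among the most correlated rows, had no window in the promoter table.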
